A study of Mus musculus with 5 samples.

Results

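The comparison set the lesion 10 days after an internal photothrombotic stroke against the lesion 1 day after it, in mouse caudate putamen. It rests on 2 of the 5 total RNA-seq libraries of the series and on every gene of its expression table, 19221 in all. The day 10 and the day 1 library were each made from the micro-punched focal tissue of 6 male C57BL/6 mice aged 9 weeks, mixed before RNA extraction. All of these animals had received rose bengal at 100 mg/kg intraperitoneally 5 min before 2 min of 532 nm laser light at 30 mW, with the optical fibre tip placed 3 mm ventral of the dura. The other 3 libraries, a pool of the contralateral sham region and pools of 4 h and day 3 lesions, are used only to place the levels of both. A library is a single pool, so no p-value or replicate spread can be given, and every difference below describes these 2 libraries.

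Rose bengal is a photosensitive dye that damages vessel walls under green light and sets off clotting, which leaves a small infarct where the fibre tip lies. In such lesions stressed cells and resident phagocytes release chemokines in the acute phase, and neutrophils and monocytes enter the tissue. Microglia and macrophages later clear myelin and cell debris through complement, Fc receptors, TREM2 and the lysosome, and can present antigen through MHC molecules. The caudate putamen itself consists mostly of medium spiny neurons, which receive dopamine through Drd1 in the direct and Drd2 in the indirect pathway.

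The deposited values are RPKM, read counts scaled by exon length and library size, and 11029 genes averaged at least 1 RPKM over both libraries, 8773 of them protein coding. Differences are log2 ratios of day 10 over day 1 with a pseudocount of 1 RPKM, which understates the ratio of low genes. The size limit was a log2 ratio of 1, which is 2-fold. By that limit 640 genes were higher (5.8% of those analysed) and 276 lower (2.5%) at day 10, among them 408 (4.65%) and 200 (2.28%) protein coding genes. Among the higher genes that are not protein coding, 101 were processed pseudogenes and 46 microRNA loci. The filter on the mean lets a gene that is under 1 RPKM in 1 library pass only through the other, where it is high, so counts over members that passed describe those members. The median log2 ratio of all 11029 genes was 0.13, and 61.5% lay above 0. Median-of-ratios scaling, with a log2 factor of 0.27 between the libraries, turns the split to 380 higher and 539 lower and the all-gene median to -0.08. Trimmed-mean scaling, with a factor of 0.28, gives 376 and 560 and a median of -0.09, so which side holds more genes depends on the scaling. The limit falls in a dense range: Bcl2a1b, with 17.8 RPKM at day 10 and 8.40 at day 1, lay just inside it, and Klhl34, with 4.38 and 1.70 RPKM, just outside. On the lower side, Ndufa6 (120 RPKM at day 10 and 241 at day 1) lay just inside and Ndufv2 (38.4 and 77.0 RPKM) just outside.

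Reads behind the RPKM came to 48013846 at day 10 and 46323685 at day 1, and to between 42261788 and 45952891 in the other libraries. In a gene with 2 kb of exon, 1 read is worth 0.0104 RPKM at day 10 and 0.0108 RPKM at day 1. Ribosomal RNA loci took 39.3% of the reads at day 10 and 35.9% at day 1, and the mitochondrial genome 2.75% and 6.02%. The tissue label held against its markers: Ppp1r1b (DARPP-32, the dopamine-regulated phosphoprotein of medium spiny neurons) stood at 849 RPKM at day 10 and 476 RPKM at day 1. Because the tissue is bulk, fewer cells of a type and less RNA per cell cannot be told apart in any value below.

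**Figure D1:**
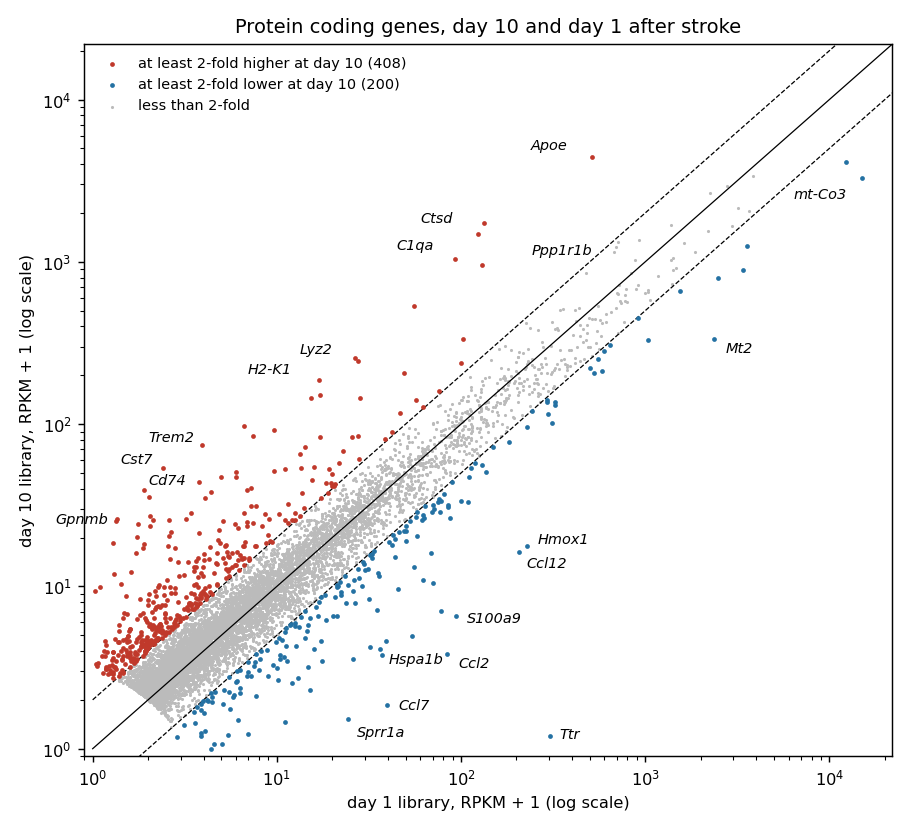
Level of each of the 8773 protein coding genes analysed in the day 10 library (vertical axis) against the day 1 library (horizontal axis), both as RPKM + 1 on log scales; the solid line marks equal values and the dashed lines 2-fold. The 408 genes at least 2-fold higher at day 10 are red and include Apoe, C1qa and Trem2, and the 200 lower ones are blue and include Ttr, Ccl2 and Hmox1.

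Several genes known from lipid-handling phagocytes were among the most strongly higher at day 10. The tissue is bulk, and which cells held these transcripts was not tested. Trem2 and Gpnmb were already at 45.8 and 18.1 RPKM at day 3. The leading gene was Cst7 (cystatin F, an inhibitor of cathepsins in myeloid cells), at 52.9 RPKM at day 10 and 1.42 RPKM at day 1, a ratio of 37.2 (95% counting interval 26.3 to 54.4). Apoc1, an apolipoprotein that rides on the same particles as Apoe, had 38.4 RPKM at day 10 and 0.8995 RPKM at day 1, a ratio of 42.7 (25.9 to 75.9). Gpnmb, a lysosomal and surface glycoprotein of phagocytes, had 25.2 RPKM at day 10 and 0.358 RPKM at day 1, a ratio of 70.3 (53.7 to 93.7). All 3 genes were below 2 RPKM at day 1. Trem2, the microglial receptor for lipids and apolipoproteins, had 73.2 RPKM at day 10 and 2.94 RPKM at day 1, a ratio of 24.9 (22.3 to 27.8). Apoe, the main lipid carrier of the brain, reached 4442 RPKM at day 10 and stood at 513 RPKM at day 1, a ratio of 8.66 (8.55 to 8.77). Apoe was thus already abundant at day 1, and its gain in RPKM was far larger than that of any gene named so far. The intervals are exact binomial ones and cover counting error only, not differences between animals or pools.

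Among 18 disease-associated microglia genes analysed, a set first defined in mouse models of neurodegeneration, 11 reached 2-fold on the higher side and none on the lower. Their median log2 ratio was 1.64, against 0.13 for all genes, and 1.44 over all 20 listed without the filter. Members under 1 RPKM at day 1, Gpnmb and Clec7a among them, passed only through day 10, so their count says nothing of direction. The set was not uniform. Tyrobp, the signalling adaptor of TREM2, had 335 RPKM at day 10 and 102 RPKM at day 1, Spp1 (osteopontin) 30.3 and 6.22 RPKM, and Clec7a (dectin-1) 4.11 and 0.557 RPKM. Lgals3 (galectin-3) had 38.5 RPKM at day 10 and 28.1 RPKM at day 1, and Fabp5, a fatty acid carrier, 69.8 and 70.8 RPKM, both short of 2-fold. Their day 3 levels were above both, at 198 RPKM for Lgals3 and 91.9 RPKM for Fabp5. Of 16 lipid droplet and efflux genes past the filter, 8 were higher and 1 was lower. Their median log2 ratio was 0.77, against 0.25 over all 19 listed without the filter. The 8 were the apolipoproteins Apoc1, Apoc2, Apoc4 and Apoe, the phospholipid transfer protein Pltp (16.5 RPKM at day 10 and 3.35 at day 1), the sterol exporters Abca1 (3.75 and 0.315 RPKM) and Abcg1 (12.1 and 2.97 RPKM), and Fabp7, a carrier of fatty acids in glia (4.40 and 1.21 RPKM). Apoc1, Apoc2, Apoc4 and Abca1 were under 1 RPKM at day 1 and passed the filter only through day 10, so their count among the 8 says nothing of direction. Apoc2 shares 79.5% of its exon length with the overlapping annotation Gm44805, so its reads cannot be assigned to it alone. The lower member was Hilpda, an inhibitor of lipid droplet breakdown that responds to hypoxia, at 5.57 RPKM at day 10 and 20.1 RPKM at day 1.

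Genes of resting microglia were low at day 1 and higher at day 10. All 13 homeostatic microglia genes that passed the filter reached 2-fold on the higher side. Their log2 ratios lay between 1.45 and 3.73, with a median of 2.1, and 2.04 over all 14 without the filter. Slc2a5, the remaining member, was below the filter. Members under 1 RPKM at day 1, P2ry12 and Siglech (0.836 RPKM) among them, passed only through day 10, so their count says nothing of direction. Tmem119, a surface protein used to tell microglia from blood-derived macrophages, had 46.2 RPKM at day 10 and 3.98 RPKM at day 1, a ratio of 11.6 (10.1 to 13.4). P2ry12, the ADP receptor that steers microglial processes, had 2.72 RPKM at day 10 and 0.170 RPKM at day 1, with a 95% counting interval of the ratio of 8.49 to 34.0. Cx3cr1, the fractalkine receptor, had 9.88 RPKM at day 10 and 1.54 RPKM at day 1. The summed level of the list was 383 RPKM at day 10 and 61.0 RPKM at day 1, with 96.4 RPKM in sham tissue, 111 RPKM at 4 h and 434 RPKM at day 3. Day 1 was thus the lowest of the 5 libraries, and the day 10 sum lay below that of day 3. Csf1r, the receptor that keeps microglia alive, had 50.3 RPKM at day 10 and 8.60 RPKM at day 1; 15.1% of its exon length overlaps Hmgxb3 on the opposite strand.

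Genes of the monocyte and macrophage list did not follow 1 direction. Lyz2 (lysozyme of myeloid cells) had 245 RPKM at day 10 and 26.4 RPKM at day 1, a ratio of 9.26 (8.61 to 9.97). Ms4a7, a macrophage membrane protein, averaged under 1 RPKM, with 1.05 RPKM at day 10 and 0.0776 RPKM at day 1. Ccr2, the monocyte receptor for Ccl2, was at 0.0709 and 0.0192 RPKM and Mrc1 (the mannose receptor) at 0.0752 and 0.0779 RPKM, near 0 in both libraries. Ly6c2, a surface protein of inflammatory monocytes, had 12.5 RPKM at day 10 and 5.02 RPKM at day 1. Arg1 (arginase 1) had 0.0841 RPKM at day 10 and 1.37 RPKM at day 1, and 10.2 RPKM at day 3. Pf4 (platelet factor 4) had 2.20 RPKM at day 10 and 13.7 RPKM at day 1, and Cd14, the lipopolysaccharide co-receptor, 18.5 and 42.8 RPKM. Of the 18 genes of that list 7 passed the filter, and of those 3 were higher and 2 were lower at day 10.

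The complement cascade was higher at day 10 from its first component to its receptor. C1qa, C1qb and C1qc encode the C1q subunits that tag debris and synapses. C1qa had 1044 RPKM at day 10 and 91.3 RPKM at day 1, C1qb 953 and 129 RPKM, and C1qc 533 and 54.9 RPKM. C4b, which C1 cleaves, had 24.4 RPKM at day 10 and 4.13 RPKM at day 1, and C3, the central component, 3.62 and 0.168 RPKM. Itgam and Itgb2, the chains of complement receptor 3, had 7.002 and 10.8 RPKM at day 10 and 1.12 and 2.15 RPKM at day 1. In all, 9 of 11 complement genes past the filter were at least 2-fold higher and none lower, with a median log2 ratio of 1.92. Over all 16 listed without the filter the median was 1.14. C3 passed the filter only through day 10, so its count says nothing of direction. The exception in direction was C5ar1, the receptor of the chemoattractant C5a, at 3.25 RPKM at day 10 and 5.15 RPKM at day 1. Itgam shares 68.7% of its exon length with Gm49368. Of 7 Fc gamma receptor genes and adaptors, which bind antibody-coated targets, 4 were higher and all lay above the all-gene median, Fcgr1 with 12.7 RPKM at day 10 and 3.76 RPKM at day 1.

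Lysosomal genes were higher as a group. Of 29 analysed, 19 passed the limit on the higher side, none on the lower, and 28 lay above the all-gene median, with a median log2 ratio of 1.31. Ctsd, the aspartic protease of lysosomes, had 1490 RPKM at day 10 and 122 RPKM at day 1, though 34.4% of its exon length is shared with the overlapping annotation Gm49369. Ctss, a cysteine protease that trims the invariant chain, had 151 RPKM at day 10 and 16.1 RPKM at day 1. Grn (progranulin, which is delivered to lysosomes) had 82.9 RPKM at day 10 and 6.44 RPKM at day 1. Laptm5, a transmembrane protein of lysosomes, had 145 RPKM at day 10 and 14.2 RPKM at day 1. Other membrane genes had smaller log2 ratios. Lamp1, a coat protein of the lysosomal membrane, had a log2 ratio of 0.84, Lamp2 of 0.59 and Atp6v1a, a subunit of the proton pump, of 0.02. The glycosidase genes Hexa and Man2b1 had log2 ratios of 2.25 and 2.01. Cst3 (cystatin C, a secreted cathepsin inhibitor) was far more abundant than Cst7 and had 2647 RPKM at day 10 and 2237 RPKM at day 1.

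Genes of antigen presentation by MHC class II and its partners were higher, and 8 of the 9 analysed passed 2-fold on the higher side. Their median log2 ratio was 3.01, and 2.04 over all 11 members in the table without the filter, where it equals that of the homeostatic microglia list. MHC class II molecules are assembled on the invariant chain Cd74 and loaded with peptide with the help of H2-DM. H2-Aa had 22.5 RPKM at day 10 and 1.06 RPKM at day 1, H2-Ab1 20.6 and 1.68 RPKM, and H2-Eb1 24.7 and 1.59 RPKM. Cd74 had 43.1 RPKM at day 10 and 2.77 RPKM at day 1. H2-DMa was the member short of 2-fold, with 10.8 RPKM at day 10 and 5.01 RPKM at day 1. Ciita, the transactivator of these genes, was below the filter, with 0.190 RPKM at day 10 and 0.0616 RPKM at day 1. The class II list summed to 286 RPKM at day 10, 107 RPKM at day 3 and 29.9 RPKM at day 1, so the day 10 library stood above day 3, unlike for the homeostatic microglia list.

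The promoters of classical class II genes carry a Y box, an inverted CCAAT element bound by NF-Y, and the bases before the transcription start of H2-Aa and H2-Eb1 are shown because both genes were among the 25 protein coding genes with the largest ratios. The letters searched were CTGATTGG on both strands, in RefSeq promoters of GRCm38.p6 that span 250 bases before to 50 after each start. They were present in 3 of the 7 class II members with a promoter in that set (H2-Aa, H2-Eb1 and H2-Oa) and in 4.1% of all 32851 promoters. Below are the 250 bases before the start, read 5′ to 3′ on the gene's strand, with the Y box in capitals, for H2-Aa at chr17:34287824-34288073 (minus strand) and H2-Eb1 at chr17:34305617-34305866 (plus strand). A match is a description of these letters and says nothing of binding.
H2-Aa: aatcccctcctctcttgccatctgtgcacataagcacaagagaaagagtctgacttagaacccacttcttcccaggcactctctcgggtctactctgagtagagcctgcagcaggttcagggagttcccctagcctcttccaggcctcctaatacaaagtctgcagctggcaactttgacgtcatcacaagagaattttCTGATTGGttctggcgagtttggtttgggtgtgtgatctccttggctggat
H2-Eb1: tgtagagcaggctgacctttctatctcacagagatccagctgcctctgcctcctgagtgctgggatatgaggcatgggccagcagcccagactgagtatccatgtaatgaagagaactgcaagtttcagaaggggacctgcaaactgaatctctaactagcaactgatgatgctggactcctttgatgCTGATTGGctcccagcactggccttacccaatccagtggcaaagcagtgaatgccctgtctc

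MHC class I genes, which present peptides from inside the cell, were also higher. Of 14 class I and peptide loading genes, 12 passed 2-fold upward, none downward, and the median log2 ratio was 1.80. H2-K1 had 187 RPKM at day 10 and 16.01 RPKM at day 1, and H2-D1 254 and 25.6 RPKM. B2m, the shared light chain, had 238 RPKM at day 10 and 98.5 RPKM at day 1. The heavy chains thus differed more than the light chain. Tap1, the peptide transporter, had 5.39 RPKM at day 10 and 1.48 RPKM at day 1, and the immunoproteasome subunit Psmb8 21.3 and 3.85 RPKM. H2-Q6 and H2-Q7 are near-identical copies and their split of reads is uncertain. H2-Q7 (0.749 RPKM at day 1) passed the filter only through day 10. Of 28 interferon response genes listed, 19 passed the filter, and of those 11 were higher and none was lower. Their median was 1.06, against 0.82 over all 28 without the filter. Ifit1, Ifit2, Mx1 and Rsad2 were among those below the filter. Oasl2 (2.80 RPKM at day 10 and 0.379 at day 1) passed only through day 10, so its count says nothing of direction. Irf7, the amplifier of type I interferon, had 19.5 RPKM at day 10 and 1.61 RPKM at day 1 and Ifi27l2a 90.4 and 8.67 RPKM. Gbp2, a GTPase induced by interferon gamma, did not share this difference, with 2.96 RPKM at day 10 and 3.16 RPKM at day 1. The motif GAAANNGAA of the interferon-stimulated response element was present in 8 of the 14 interferon members with a promoter and in 2 of 13 class I members, against 8.56% of all promoters.

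Transcripts of lymphocytes were low but differed. Nkg7, a granule protein of cytotoxic cells, had 2.39 RPKM at day 10 and 0.0709 RPKM at day 1, a ratio of 33.8 (7.53 to 480). Cd8a, the co-receptor of cytotoxic T cells, had 0.699 RPKM at day 10 and was listed at 0 at day 1, and Cd3e, a chain of the T cell receptor complex, had 0.403 and 0.0106 RPKM. Ccl5, a chemokine of T cells and NK cells, had 11.3 RPKM at day 10 and 0.607 RPKM at day 1, a ratio of 18.6 (10.8 to 34.9). Of 23 T and NK cell genes listed, 20 were in the table and 5 averaged at least 1 RPKM. Nkg7 and Ccl5 passed that filter only through their day 10 level, so their count among the 5 says nothing of direction. The median of the 5 was -0.02, which turns to 0.20 with length centring, and Trbc1, Trbc2 and Cd4 did not share the direction of Ccl5 and Nkg7. Trbc2 had 14.6 RPKM at day 10 and 27.9 RPKM at day 1, and Cd4 8.66 and 9.27 RPKM. Cd79a, a defining B cell gene, stood at 0.0715 RPKM at day 10 and 0.252 RPKM at day 1, and the immunoglobulin light chain Igkc at 5.29 and 1.91 RPKM.

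Chemokines divided by member, with more of those past the filter lower than higher. Of 18 analysed, 3 passed 2-fold upward and 8 downward, with a median log2 ratio of -0.64. Over the 22 members in the table without the filter the median was -0.39. Ccl7 and Cxcl2 passed the filter only through day 1 and Ccl5 only through day 10, so their counts say nothing of direction. Attractants of monocytes led the lower side. Ccl2 had 2.86 RPKM at day 10 and 83.1 RPKM at day 1, which is 29.1-fold lower. Ccl7 had 0.858 RPKM at day 10 and 38.7 RPKM at day 1, and Ccl12 15.3 and 207 RPKM. Ccl3 and Ccl4, released by activated microglia, had 9.49 and 10.0 RPKM at day 10 and 69.1 and 61.3 RPKM at day 1. Cxcl1 and Cxcl2, the ligands of the neutrophil receptor Cxcr2, had 1.29 and 0.463 RPKM at day 10 and 14.2 and 10.0 RPKM at day 1. Besides Ccl5, the higher members were Ccl8, a ligand of monocyte receptors, with 8.36 RPKM at day 10 and 1.18 RPKM at day 1, and Cxcl16, a membrane-bound chemokine of phagocytes, with 17.0 and 4.31 RPKM. For each of the 7 lower members named here, the day 1 level was above the sham, 4 h and day 3 levels as well.

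**Figure D2:**
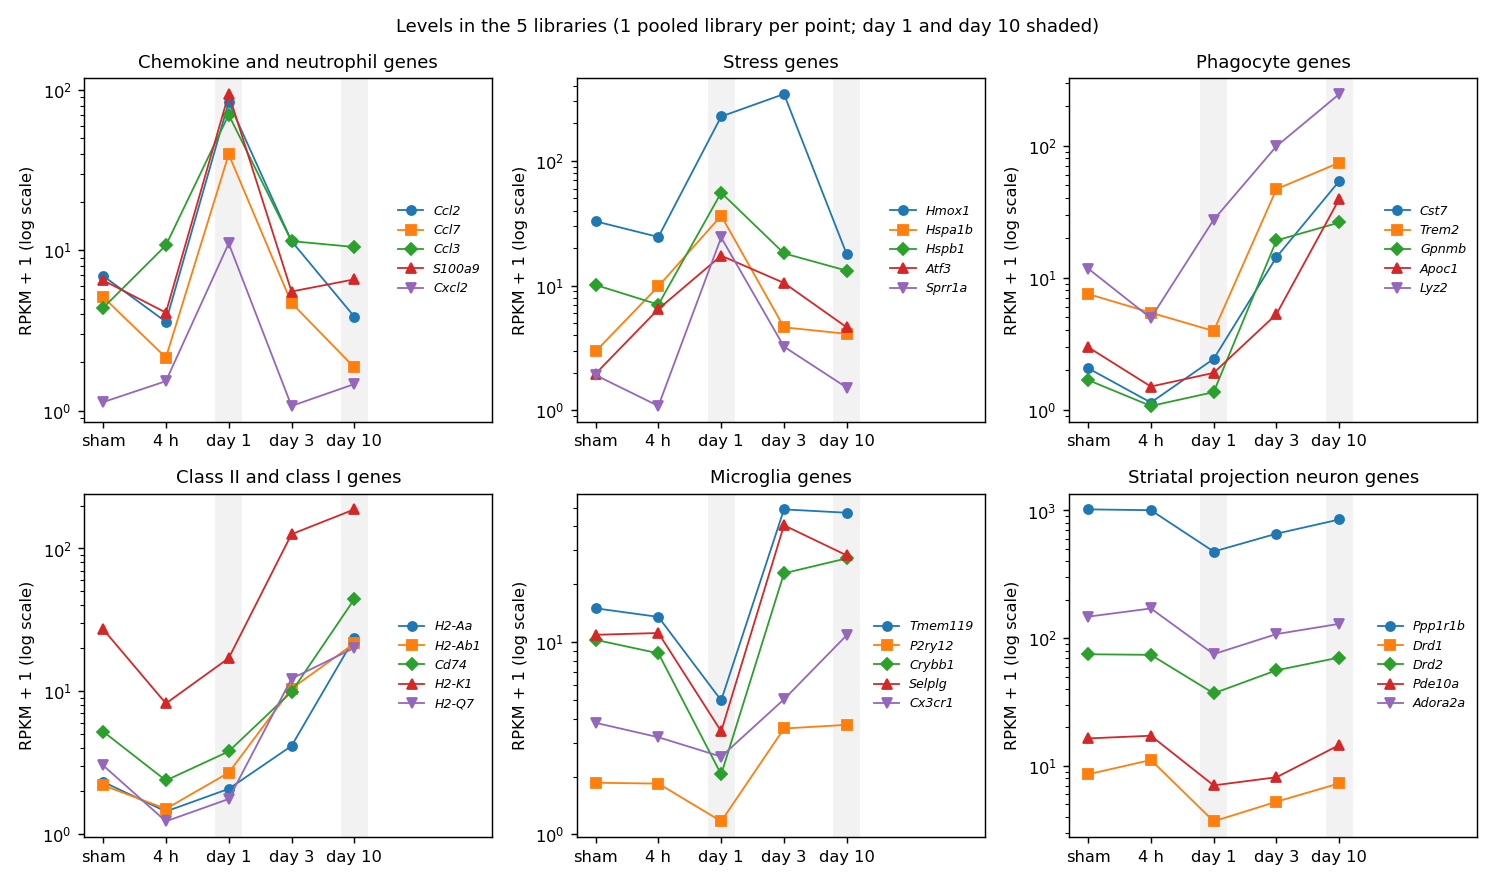
RPKM + 1 (log scale) of 30 genes in the sham, 4 h, day 1, day 3 and day 10 libraries, 1 pooled library per point, with day 1 and day 10 shaded. Ccl2 and S100a9 peak at day 1 (83.1 and 93.4 RPKM), Trem2 and Cst7 are highest at day 10 (73.2 and 52.9 RPKM), and Tmem119 and Ppp1r1b are lowest at day 1 (3.98 and 476 RPKM).

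Most neutrophil genes that passed the filter were lower at day 10. S100a9, a calcium-binding protein that fills the neutrophil cytosol, had 5.59 RPKM at day 10 and 93.4 RPKM at day 1, which is 16.7-fold lower. Its partner S100a8 had 3.93 RPKM at day 10 and 53.03 RPKM at day 1, and the neutrophil gene Retnlg 0.240 and 5.93 RPKM. Of 18 neutrophil genes listed, 12 were in the table and 6 passed the filter, with a median log2 ratio of -1.87, against -0.41 over the 12 without it. Retnlg and Clec4d (0.664 RPKM at day 10 and 3.00 RPKM at day 1) passed only through their day 1 level. Their count among the 6 thus says nothing of direction. Of the 6, 4 were at least 2-fold lower and 1 was higher. The higher one was Csf3r, the receptor of the neutrophil growth factor G-CSF, with 8.89 RPKM at day 10 and 1.26 RPKM at day 1. The neutrophil markers Cxcr2 and Trem1 were near 0 in both libraries, at 0.0547 and 0.132 RPKM at day 10 and 0.177 and 0.476 RPKM at day 1. Cytokines were mixed: of 23 cytokine and feedback genes listed, 12 passed the filter, with 4 lower and 2 higher. Their median log2 ratio was -0.48, and -0.44 over all 23 without the filter. Il1rn, the natural antagonist of interleukin-1, had 0.501 RPKM at day 10 and 5.14 RPKM at day 1, Il1b 0.939 and 3.45 RPKM, and the gp130 ligand Lif 0.254 and 2.87 RPKM. Tgfb1, an anti-inflammatory cytokine, was 1 of the 2 higher ones, with 5.64 RPKM at day 10 and 1.86 RPKM at day 1. The other was Il10ra, with 6.64 RPKM at day 10 and 0.987 RPKM at day 1. Il1rn, Il1b and Lif passed the filter only through day 1 and Il10ra only through day 10, so their counts say nothing of direction. Il6 was below the filter, with 0.0172 RPKM at day 10 and 0.774 RPKM at day 1.

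**Figure D3:**
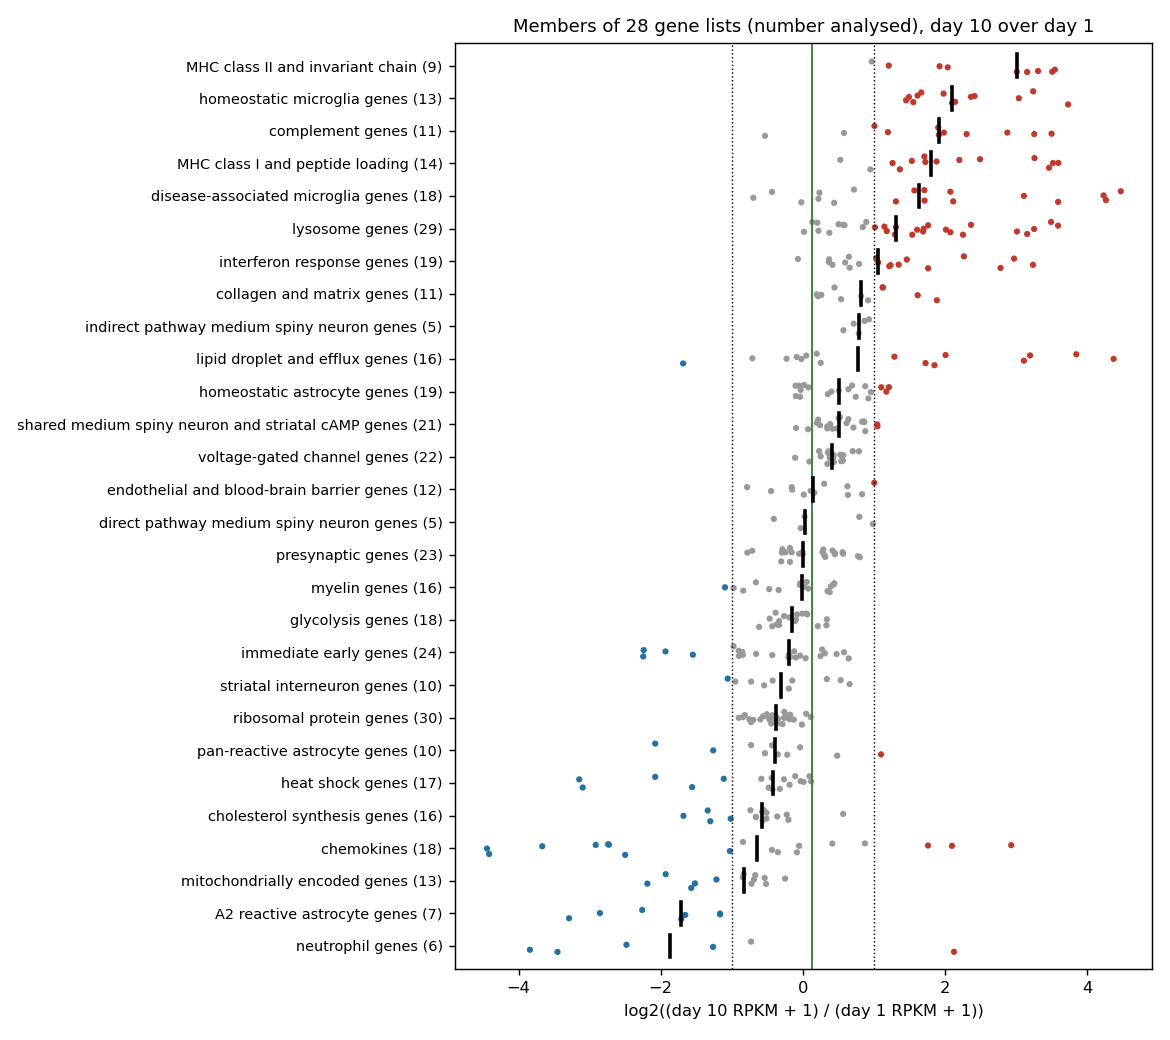
Log2 ratio of day 10 over day 1 (horizontal axis) of each analysed member of 28 gene lists (rows, ordered by median, number analysed in brackets); each point is a gene, red if at least 2-fold higher, blue if at least 2-fold lower, grey otherwise, black bars are list medians, dotted lines mark 2-fold and the green line the all-gene median of 0.13. Among members past the filter MHC class II has the highest median (3.01) and the neutrophil genes the lowest (-1.87), which are 2.04 and -0.41 without the filter, and chemokines reach from -4.45 (Ccl2) to 2.93 (Ccl5).

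Acute stress genes stood among the most strongly lower ones. Hmox1, which breaks down haem, had 16.8 RPKM at day 10 and 226 RPKM at day 1, which is 13.5-fold lower, and 343 RPKM at day 3. The metallothioneins Mt1 and Mt2, which bind zinc and copper, had 330 and 336 RPKM at day 10 and 1029 and 2372 RPKM at day 1; Mt2 overlaps Gm45774 on the opposite strand over 73.5% of its exon length. Of 15 NRF2 antioxidant genes, 4 were at least 2-fold lower and none was higher, with a median of -0.26. The other 11 members were short of 2-fold: Nqo1, the usual NRF2 reporter gene, had 2.56 RPKM at day 10 and 3.27 RPKM at day 1. Sprr1a, a cornified envelope protein that injured neurons produce, had 0.517 RPKM at day 10 and 23.3 RPKM at day 1, which is 45.1-fold lower. Atf3, a transcription factor of axon injury and the integrated stress response, had 3.62 RPKM at day 10 and 16.4 RPKM at day 1, and Atf4, its upstream factor, 31.9 and 73.5 RPKM. The other 21 genes of the unfolded protein and integrated stress list were short of 2-fold. Of 24 immediate early genes 4 were lower and none was higher: Fos had 2.58 RPKM at day 10 and 9.46 RPKM at day 1, with Fosl1, Maff and Ier3. Arc and Egr1 were not among them, as Arc had 33.5 RPKM at day 10 and 21.1 RPKM at day 1, and Egr1 20.3 and 16.2 RPKM.

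Of 17 heat shock genes, 5 were at least 2-fold lower at day 10, none was higher, and all 17 lay at or below the all-gene median of 0.13. Hspa1a and Hspa1b encode the inducible HSP70 chaperone, and Hspb1 the small chaperone HSP27. Hspa1b had 3.10 RPKM at day 10 and 35.3 RPKM at day 1, and its neighbour Hspa1a, a near-identical copy whose reads cannot be fully told apart, 3.59 and 38.3 RPKM. Hspb1 had 12.2 RPKM at day 10 and 54.6 RPKM at day 1. The constitutive family members differed little: Hspa8 had a log2 ratio of -0.27 and Hsp90ab1 of 0.09. Heat shock factor binds inverted repeats, and the letters GAANNTTC, which read the same on both strands, were present in 10 of the 13 heat shock members with a promoter and in 7.86% of all promoters. The 10 hold all 5 lower members, which are Hspa1a, Hspa1b, Hspb1, Hspb6 and Hspe1, and also 5 members short of 2-fold, Dnaja1 and Hspd1 among them. The 250 bases before the start are shown for Hspa1b (GRCm38.p6, chr17:34959239-34959488, minus strand) and Hspb1 (chr5:135887669-135887918, plus strand) as examples of the lower members, with the motif in capitals.
Hspa1b: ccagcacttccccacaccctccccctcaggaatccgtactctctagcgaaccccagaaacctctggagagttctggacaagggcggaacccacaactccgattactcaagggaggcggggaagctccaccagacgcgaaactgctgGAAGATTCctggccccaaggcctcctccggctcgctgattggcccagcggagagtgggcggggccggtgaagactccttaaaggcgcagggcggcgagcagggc
Hspb1: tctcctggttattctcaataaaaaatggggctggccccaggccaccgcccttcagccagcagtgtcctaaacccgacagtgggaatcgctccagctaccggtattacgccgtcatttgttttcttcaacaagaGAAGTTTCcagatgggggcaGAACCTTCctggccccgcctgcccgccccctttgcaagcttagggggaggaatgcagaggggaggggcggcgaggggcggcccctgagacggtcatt

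Reactive astrocyte genes split by subset. All 7 analysed members of the A2 set, a signature drawn from ischaemic mouse brain, were at least 2-fold lower at day 10, with a median log2 ratio of -1.71. Over the 11 members in the table without the filter the median was -1.17. Sphk1, 1 of the 7, passed the filter only through its day 1 level, and Cd14, another, is also on the monocyte and macrophage list. Tgm1 (a transglutaminase) had 2.80 RPKM at day 10 and 36.2 RPKM at day 1, Tm4sf1 2.58 and 24.9 RPKM, and Ptx3 (a secreted pentraxin) 1.53 and 11.1 RPKM. Of 9 members of the A1 set, drawn from mouse brain after endotoxin, 5 were higher and 1 was lower, with a median of 1.20, against 0.59 over all 13 without the filter. The 5 were H2-D1, H2-T23, Psmb8, C3 and Serping1, which are class I and complement genes that microglia express as well, and the lower one was Srgn. C3 passed the filter only through its day 10 level. The pan-reactive genes had 1 of 10 higher and 2 lower. Gfap, the astrocyte intermediate filament, had 234 RPKM at day 10 and 272 RPKM at day 1, short of 2-fold, and 509 RPKM at day 3. Vim was the higher one, with 29.3 RPKM at day 10 and 13.1 RPKM at day 1, and Timp1, a metalloproteinase inhibitor, was lower, with 24.6 and 60.4 RPKM. Among 19 genes of resting astrocytes 3 were higher and none was lower: the water channel Aqp4 (4.30 RPKM at day 10 and 1.29 at day 1), the potassium channel Kcnj10 (7.74 and 2.87 RPKM) and the gap junction protein Gja1 (3.41 and 1.05 RPKM). Their median of 0.51 stayed above the all-gene median under both other scalings, at 0.23 and 0.22 against -0.08 and -0.09.

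Medium spiny neuron genes were moderately higher at day 10. Drd2 had 69.6 RPKM at day 10 and 36.0 RPKM at day 1, a ratio of 1.93 (1.83 to 2.04), and Adora2a, the adenosine receptor of the same indirect pathway cells, 129 and 74.0 RPKM. Penk, which encodes their enkephalin precursor, had 388 RPKM at day 10 and 236 RPKM at day 1. All 5 indirect pathway genes lay above the all-gene median, none reached 2-fold, and their median was 0.79. The 5 direct pathway genes were spread more widely, with a median of 0.02 that turns to -0.12 under both other scalings. Drd1 had 6.30 RPKM at day 10 and 2.68 RPKM at day 1, and Chrm4, the muscarinic receptor of the same cells, 24.8 and 13.9 RPKM. The neuropeptide genes Tac1 and Pdyn differed from these receptors, with 23.5 and 7.31 RPKM at day 10 and 31.5 and 7.48 RPKM at day 1. Of 21 shared striatal genes, 19 lay above the all-gene median and 2 reached 2-fold, among them Pde10a, a cyclic nucleotide phosphodiesterase, at 13.6 RPKM at day 10 and 6.04 RPKM at day 1. In sham tissue Pde10a had 15.4 RPKM, so its day 10 level lay below sham.

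Other neuronal lists lay on both sides of the all-gene median. Of 10 striatal interneuron genes, 1 was lower and none was higher, with a median of -0.31. Npy had 56.2 RPKM at day 10 and 118 RPKM at day 1, and Sst, made by the same cells, 167 and 277 RPKM. The cholinergic genes Slc18a3 and Chat went the other way, at 2.91 and 1.56 RPKM at day 10 and 1.48 and 1.02 RPKM at day 1, short of 2-fold. Of 23 presynaptic genes none reached 2-fold and 11 lay above the all-gene median, among them the GABA transporter Slc32a1, with 48.3 RPKM at day 10 and 27.3 RPKM at day 1. The 8 cortical excitatory markers that passed the filter were all below the all-gene median, with a median of -0.65, and their list summed to 75.0 RPKM at day 10 and 127 RPKM at day 1. Slc17a7, the vesicular glutamate transporter of cortical neurons, had 50.0 RPKM at day 10 and 86.7 RPKM at day 1. Their part in the neuronal differences was not tested. Of 12 glutamate receptor genes none reached 2-fold and 10 lay above the all-gene median, with a median of 0.45 that became 0.17 when each ratio was centred on genes of like length. Of 22 voltage-gated channel genes none reached 2-fold and 20 lay above the all-gene median, with a median of 0.41 that became 0.16 with the same centring.

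Few oligodendrocyte genes reached 2-fold. Of 16 myelin genes 15 were short of 2-fold and 1 was lower, Opalin, at 20.6 RPKM at day 10 and 45.2 RPKM at day 1. Mbp, the myelin basic protein, had 651 RPKM at day 10 and 1029 RPKM at day 1. Of 9 lineage genes that passed the filter 2 were higher and 1 was lower. Gpr17, a receptor of precursors about to differentiate, had 6.29 RPKM at day 10 and 1.17 RPKM at day 1, a ratio of 5.39 (4.50 to 6.50). The precursor markers Cspg4 (1.63 RPKM at day 10 and 0.347 at day 1) and Pdgfra (0.671 and 0.233 RPKM) averaged under 1 RPKM and did not reach 2-fold on the log2 scale used. Cholesterol synthesis genes, which oligodendrocytes need for myelin, leaned lower: 4 of 16 were at least 2-fold lower, none was higher, and 15 lay at or below the all-gene median. Msmo1, a sterol oxidase, had 1.79 RPKM at day 10 and 7.96 RPKM at day 1, and Fdps, which makes farnesyl diphosphate, 7.82 and 21.3 RPKM. Apoe and Abca1, on the export side, thus stood opposite to the synthesis genes.

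Among scar and vessel genes, the collagen values were low. Of 30 matrix genes listed, 11 passed the filter, with 4 higher and none lower and a median log2 ratio of 0.82, against 0.29 over all 30. Col1a1 and Col3a1 passed only through day 10 and the counts describe the members that passed. Col1a1, a fibrillar collagen of fibroblasts, had 3.38 RPKM at day 10 and 0.184 RPKM at day 1, a ratio of 18.3 (12.5 to 27.9), and Col3a1 2.24 and 0.0550 RPKM. Their day 3 levels were 0.653 and 0.412 RPKM, so both stood apart at day 10 in this series. Endothelial genes had a median of 0.14 that turns to -0.13 under both other scalings; Cldn5, the tight junction protein of brain endothelium, was 1 of 12 at 2-fold, with 36.8 RPKM at day 10 and 17.9 RPKM at day 1. Hypoxia genes had 5 of 14 lower and none higher. Angptl4, a lipase inhibitor induced by low oxygen, had 1.79 RPKM at day 10 and 6.21 RPKM at day 1, whereas Vegfa, the angiogenic factor, had 1.70 and 2.03 RPKM. Proliferation genes were mostly silent in both: 21 of 26 cell cycle genes were below the filter, and the summed list had 19.5 RPKM at day 10, 22.8 RPKM at day 1 and 48.7 RPKM at day 3.

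The largest single ratio belonged to Ttr (transthyretin, the thyroid hormone carrier of choroid plexus), at 0.205 RPKM at day 10 and 303 RPKM at day 1, a log2 ratio of -7.98. It had 77.4 RPKM in sham tissue, 729 RPKM at 4 h and 19.6 RPKM at day 3. The ependymal and choroid plexus list, 16 genes of which 7 passed the filter, summed to 27.0 RPKM at day 10 and 321 RPKM at day 1. The sum ranged from 51.7 to 762 RPKM in the other libraries. Ttr alone held 303 of the 321 RPKM at day 1 and 0.205 of the 27.0 RPKM at day 10. Of the 7 members, 2 were higher and 1, Ttr, was lower, with a median log2 ratio of 0.31, or -0.01 without the filter. Other choroid plexus genes did not all share the direction of Ttr. Folr1 had 0.145 RPKM at day 10 and 1.16 RPKM at day 1, and Kcnj13 had 0.0164 and 0.901 RPKM. Kl and Otx2 were near 0 in both, at 0.0223 and 0.0123 RPKM at day 10 and 0.0440 and 0 RPKM at day 1. Aqp1, the water channel of choroid plexus, had 2.45 RPKM at day 10 and 0.337 RPKM at day 1, and Foxj1, a transcription factor of ciliated ependyma, had 6.47 RPKM at day 10 and 2.24 RPKM at day 1. Aqp1 passed the filter only through day 10, so its count among the higher members says nothing of direction. The part of choroid plexus tissue in the Ttr value was not tested.

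Transcripts of the mitochondrial genome and of ribosomal proteins, many of them short, lay below the all-gene median. Of the 13 protein genes of the mitochondrial genome, 5 were at least 2-fold lower and all were below the all-gene median, with a median of -0.83. The list summed to 15629 RPKM at day 10 and 44635 RPKM at day 1. mt-Co3, a subunit of cytochrome oxidase, had 3303 RPKM at day 10 and 15060 RPKM at day 1, and the nuclear copy Gm28437 held almost the same values, so reads may be shared. Of 24 nuclear oxidative phosphorylation genes 4 were lower and none was higher, with a median of -0.32, Cox7c with 136 RPKM at day 10 and 323 RPKM at day 1. All 30 ribosomal protein genes lay below the all-gene median, with a median of -0.37, and none reached 2-fold. Across protein coding genes split into 5 equal bins by exon length, the median log2 ratio was -0.15 in the shortest bin, then 0.02, 0.11, 0.20 and 0.26 in the longest. The share at least 2-fold lower was 7.07% in the shortest bin and 0.228% in the longest, and the share at least 2-fold higher 7.12% and 2.96%. Centred on genes of like length, the medians were -0.61 for mitochondrially encoded, -0.28 for nuclear oxidative phosphorylation and -0.38 for ribosomal protein genes. The part of length in these differences beyond that centring was not tested.

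**Figure D4:**
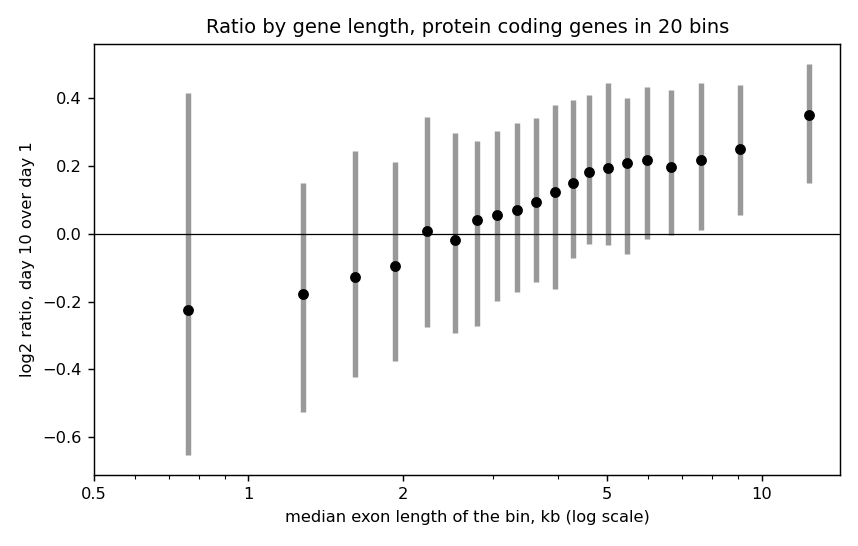
Median log2 ratio of day 10 over day 1 (points) and its interquartile range (grey bars) of protein coding genes in 20 bins of exon length, in kb on a log scale. The median is lowest in the shortest genes and highest in the longest, and over 5 equal bins it ran between -0.15 in the shortest and 0.26 in the longest.

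The day 3 library places these differences in time. Of the 408 higher protein coding genes, 233 had a day 3 level between day 1 and day 10, 171 were at or above both at day 3, and 4 at or below both. Genes between them included Cst7 (13.3 RPKM at day 3), Apoc1 (4.29 RPKM) and Cd74 (8.88 RPKM). Genes already at or above the day 10 level at day 3 included Tmem119 (48.1 RPKM), Ctsd (1631 RPKM), Cd68 (211 RPKM, against 81.9 at day 10 and 24.6 at day 1) and Ifi27l2a (134 RPKM). The order did not follow the lists throughout, since Apoc2 had 12.3 RPKM and the class II gene H2-DMb1 6.53 RPKM at day 3, against 17.6 and 7.24 RPKM at day 10, and the lysosomal gene Ctss had 59.8 RPKM at day 3 and 151 RPKM at day 10. Of the 200 lower genes, 164 had a day 3 level between both, 18 were above both, as Hmox1 was, and 18 below both. The authors' deposited table gives a GFOLD value for the pair, a log2 fold change shrunk for counting uncertainty, and by it 640 genes passed 2-fold upward and 233 downward. In the authors' deposited table that value was 4.80 for Cst7, 4.51 for Trem2, -4.59 for Ccl2 and -9.54 for Ttr.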

How the data were processed

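Each library was made from Trizol RNA of pooled micro-punched tissue with a VAHTS total RNA kit, per the labels' protocols. Trimmomatic 0.36, HISAT2 2.1.0 and StringTie 1.3.4d were used on GRCm38, per the submitters' processing notes, which list them without roles. Neither annotation release nor counting strand is given in the sources used here. Per gene and library, the authors deposited RPKM, and log2 fold changes and GFOLD values per pair. Here log2((day 10 RPKM + 1)/(day 1 RPKM + 1)) was computed for genes with a mean of at least 1 RPKM over both libraries, with Python 3.11.15, numpy 2.4.6, pandas 2.3.3 and scipy 1.17.1. Gene type, position, exon length and overlaps came from GENCODE M21 (GRCm38), which matched 99.8% of the identifiers. Whole reads were recovered from RPKM and exon length within 0.02 reads for 90.4% of values tested in each library, which allowed exact conditional binomial 95% intervals for 9890 genes. For these intervals the reads were divided by 2, on the assumption that both mates of a pair were counted. The computation was tested on simulated data. The 63 gene lists and the comparison itself were chosen with earlier results of these data known. Named genes are the 25 with the largest ratio on each side among protein coding genes, up to 6 members of each list with the largest absolute ratio, members at least 2-fold against their list's median, and defining markers of cell types; other members are named as contrasts and were chosen after their values were seen.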

Additional observations from a re-analysis of the deposited data

How the results depend on the processing

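No paired analysis was possible because each time is 1 library, and no library could be left out. The 640 higher genes became 1069 with a pseudocount of 0.1, 380 (median-of-ratios), 376 (trimmed-mean), 396 without ribosomal, small, mitochondrial and predicted RNAs, 308 at a mean of at least 5 RPKM, 1697 at 1.5-fold and 98 at 4-fold. The 276 lower genes became 539, 560, 915 and 42 under median-of-ratios, trimmed-mean, 1.5-fold and 4-fold. Without a filter the counts were 684 and 282, and with a counting interval excluding 1 they were 551 and 239. Centring on genes of like length, chosen after seeing the data, gave 734 and 242. No gene past 2-fold that the naming rule picks changed sign under the other scalings, pseudocounts or length centring. The medians of 14 of 63 lists changed sign under at least 1 of those settings or under a changed filter. Under median-of-ratios and trimmed-mean scaling they turned to -0.14 and -0.15 for haem and iron, -0.12 and -0.12 for direct pathway, -0.13 and -0.13 for endothelial and -0.16 and -0.17 for pericyte genes, and under trimmed-mean scaling to -0.01 for insulin-like growth factor genes. With length centring they were 0.20 for T and NK cell, 0.03 for cystatin, -0.07 for direct pathway and -0.03 for pericyte genes. Without a filter they were 0.53 for T and NK cell, 0.03 for p53, 0.21 for glucocorticoid-induced, 0.13 for cell cycle and -0.01 for ependymal and choroid plexus genes. At a mean of at least 5 RPKM they were -0.55 for B cell, 0.24 for cystatin, -0.39 for haem and iron, 0.20 for glucocorticoid-induced, -0.03 for direct pathway, -0.51 for pericyte, -0.08 for metalloproteinase, -0.27 for TGF-beta and -0.04 for insulin-like growth factor genes. The cause was not tested. The limit a count of 0 allows is 3 reads, here not divided by 2 as they were for the intervals. For 2 kb of exon that is 0.0312 RPKM at day 10 and 0.0324 RPKM at day 1. Ratios of genes near that level rest on few reads.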
